A study of Homo sapiens with 18 samples.

Results

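Tetraploid clone 4N-2 was compared with tetraploid clone 4N-1, at equal DNA content, in 6 of the 18 RNA-seq libraries of the series (3 of each clone), chosen by their clone labels alone. All clones came from RPE1, a human cell line made from retinal pigment epithelium and kept dividing with telomerase. Asynchronous RPE1 cultures received 2.5 uM of ZM447439, an Aurora kinase inhibitor, for 72 hours, and the populations that grew out over the following weeks were plated at single-cell density; flow cytometry of DNA content then told tetraploid (4N) from diploid (2N) clones. Clones 4N-2, 4N-1 and 4N-3 each had a diploid counterpart, 2N-2, 2N-1 and 2N-3, taken from the same plates, and 3 biological replicates per clone (A, B and C) were sequenced from polyadenylated RNA of cells grown in DMEM with 10% FBS. Every clone descends from treated cultures, so exposure to the inhibitor is shared by both clones compared. Clone 4N-2 was labelled with the DNA dye Hoechst 33342 before sub-cloning, as was 2N-2, and 4N-1 was not; the labelling and the clone cannot be told apart in this comparison. Each group is a single clone, so every test below is about these clones and the spread between their cultures, not about tetraploid cells in general.

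Cells that leave mitosis without dividing double their genome, and their descendants carry extra centrosomes and tend to missegregate chromosomes as they divide. The p53 pathway is known to halt many newly tetraploid cells through the CDK inhibitor p21. Clones drawn from single cells of the same line can also differ in heritable gene silencing and in chromosome content.

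Expression was given as RPKM, reads per kb of gene and M reads (M for mega). Whole reads per gene could be recovered from these values. The 4N-2 libraries held 40.4, 39.4 and 45.1 M reads in genes in replicates A, B and C, and the 4N-1 libraries 42.8, 48.5 and 46.8 M. In a principal component analysis the 4N-2 libraries lay at 36.4 to 39.6 on the first component, which carried 37.4% of the variance, the 4N-1 libraries at -17.5 to -16.0, and the 12 libraries of the other 4 clones between -9.64 and 2.56. Library A of 2N-3 stood apart from the rest: on the second component, with 23.2% of the variance, it lay at 55.6 and the other 17 libraries between -9.83 and 0.537, and its root mean square log2 distance to its replicates was 0.607, against 0.156 to 0.339 for the other libraries. A gene was taken as called when its adjusted p from limma (Benjamini-Hochberg) was below 0.05 and its change at least 2-fold, and "rose" and "fell" refer to 4N-2 relative to 4N-1 at an adjusted p below 0.05. On log2(RPKM + 0.5), a scale that understates the change of low genes, 761 of 9704 tested genes were called (7.84%), of which 420 were higher in 4N-2 (4.33%) and 341 lower (3.51%). The balance depended on the scaling, since with median-ratio scaling 366 were higher and 392 lower. On recovered reads, which admit genes of low level, 4311 of 23397 were called (18.4%), 2067 higher (8.83%) and 2244 lower (9.59%). Of the genes called on RPKM, 731 were called in the same direction on reads.

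Among genes called on RPKM, 4N-2 alone left the range of the other 4 clones more often than 4N-1 alone did, chiefly among the falls. Of the 761 genes called on RPKM, 318 (41.8%) had the 4N-2 libraries alone outside the range of the 12 libraries of the other 4 clones, 156 (20.5%) had the 4N-1 libraries alone outside it, and 196 (25.8%) had both outside. Without library A of 2N-3, left out after the data were seen, these counts were 321, 117 and 267. With all libraries, 4N-2 alone was outside for 156 of the 420 higher genes (37.1%) and 4N-1 alone for 127 (30.2%). Of the 341 lower genes these were 162 (47.5%) and 29 (8.50%). Over all 9704 tested genes the 4N-2 mean was the highest of all 6 clones in 32.0% and the lowest in 28.4%. The 4N-1 mean was the highest in 18.5%. Among the 15 largest rises, the 4N-2 mean was above those of all 5 other clones in 15 and the 4N-1 mean the lowest in 10. Among the 15 largest falls, the 4N-2 mean was the lowest of all 6 clones in 14 and the 4N-1 mean the highest in 13. Without library A of 2N-3 these counts were unchanged, as were those of the rises. These genes were chosen for the largest differences of 4N-2 over 4N-1, so the extreme places of both clones are partly set by that choice.

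The largest rise on RPKM was that of G0S2, a small inhibitor of the triglyceride lipase ATGL. It measured 30.9, 31.8 and 34.5 RPKM in 4N-2 and 1.13, 0.888 and 1.06 RPKM in 4N-1, a log2 difference of 4.43 (SE 0.22, limma adjusted p = 1.01e-09). TIMP3, a secreted inhibitor of metalloproteases that binds the extracellular matrix and that retinal pigment epithelium is known to make, had 401, 381 and 281 reads per M in 4N-2 and 0.0237, 0.147 and 0.0892 in 4N-1. Over the 3 libraries of each clone that was 43520 against 12 reads, a ratio of 3942 (exact 95% interval 2257 to 7630, counting error only). TIMP3 was thus near absent in 4N-1, and it averaged 0.0650 to 0.377 reads per M in the other 4 clones. IGFBP3, a secreted carrier of insulin-like growth factors, had 15.01, 14.1 and 15.5 RPKM in 4N-2 against 1.35, 1.22 and 1.43 RPKM in 4N-1 (log2 difference 3.07, SE 0.11). For all 3 genes the libraries of the clones were far from overlapping; libraries did not overlap for 69.2% of all tested genes. OXTR, the oxytocin receptor, averaged 8.23 ± 0.594 RPKM in 4N-2 and 0.867 ± 0.0859 RPKM in 4N-1 (SD, n = 3 each). DKK1, a secreted inhibitor of Wnt signalling, averaged 33.8 ± 3.21 RPKM in 4N-2 and 6.64 ± 0.361 RPKM in 4N-1 (SD, n = 3 each). PODXL, the sialomucin podocalyxin, averaged 4.10 ± 0.196 RPKM in 4N-2 and 0.497 ± 0.0137 RPKM in 4N-1 (SD, n = 3 each). C11orf91, GAL3ST4, TNNT1, CD68, MT-ND2, the long noncoding RNAs LASTR and TMPO-AS1 and a Y RNA were also among the 15 largest rises, which ran from log2 differences of 2.20 to 4.43. The use of strand in counting is not given in the sources used here, so TMPO-AS1, antisense to TMPO, is uncertain.

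The falls were led by LUM, which encodes the collagen-binding proteoglycan lumican. It had 0.0110, 0.00545 and 0 RPKM in 4N-2 and 13.3, 13.3 and 14.7 RPKM in 4N-1, a log2 difference of -4.82 (SE 0.14, limma adjusted p = 9.18e-12). That was 6 reads in 4N-2 against 17051 in 4N-1, and the other 4 clones averaged 2.73 to 7.26 RPKM. EGR1, a zinc finger factor induced by growth signals, had 0.815, 0.892 and 0.446 RPKM in 4N-2 and 17.1, 16.2 and 17.2 RPKM in 4N-1 (log2 difference -3.85, SE 0.24). FOS, a subunit of the AP-1 factor, had 0.249, 0.457 and 0.240 RPKM in 4N-2 against 7.03, 7.72 and 7.77 RPKM in 4N-1 (log2 difference -3.30, SE 0.32). For EGR1 and FOS the low level was shared by 4N-3, at 0.698 ± 0.295 and 0.322 ± 0.286 RPKM, while the diploid clones had 8.55 to 14.3 RPKM of EGR1 and 4.28 to 5.41 RPKM of FOS. HES1, a repressor that Notch signalling induces, had 2.70, 2.87 and 1.51 RPKM in 4N-2 against 22.5, 23.6 and 20.9 RPKM in 4N-1 (log2 difference -3.03, SE 0.16). SCD, the desaturase that makes oleic acid, had 24.5, 24.1 and 21.8 RPKM in 4N-2 and 167, 167 and 178 RPKM in 4N-1 (log2 difference -2.84, SE 0.20). SCD has a pseudogene copy, SCDP1, that was also among the falls, and reads of the pair may be split between them. MYL9, a regulatory light chain of smooth muscle myosin, had 7.55, 7.61 and 7.57 RPKM in 4N-2 and 48.5, 48.5 and 48.3 RPKM in 4N-1 (log2 difference -2.60, SE 0.16). VEGFA, the angiogenic growth factor, and BMP4, a ligand of the TGF-beta family, fell by 2.45 and 2.40 on the log2 scale. FOSB, PRSS33, FOXS1, RNU6ATAC18P and the mitochondrial tRNA genes MT-TL1 and MT-TT were the others of the 15 largest falls, which ran from log2 differences of -4.82 to -2.40.

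**Figure D1:**
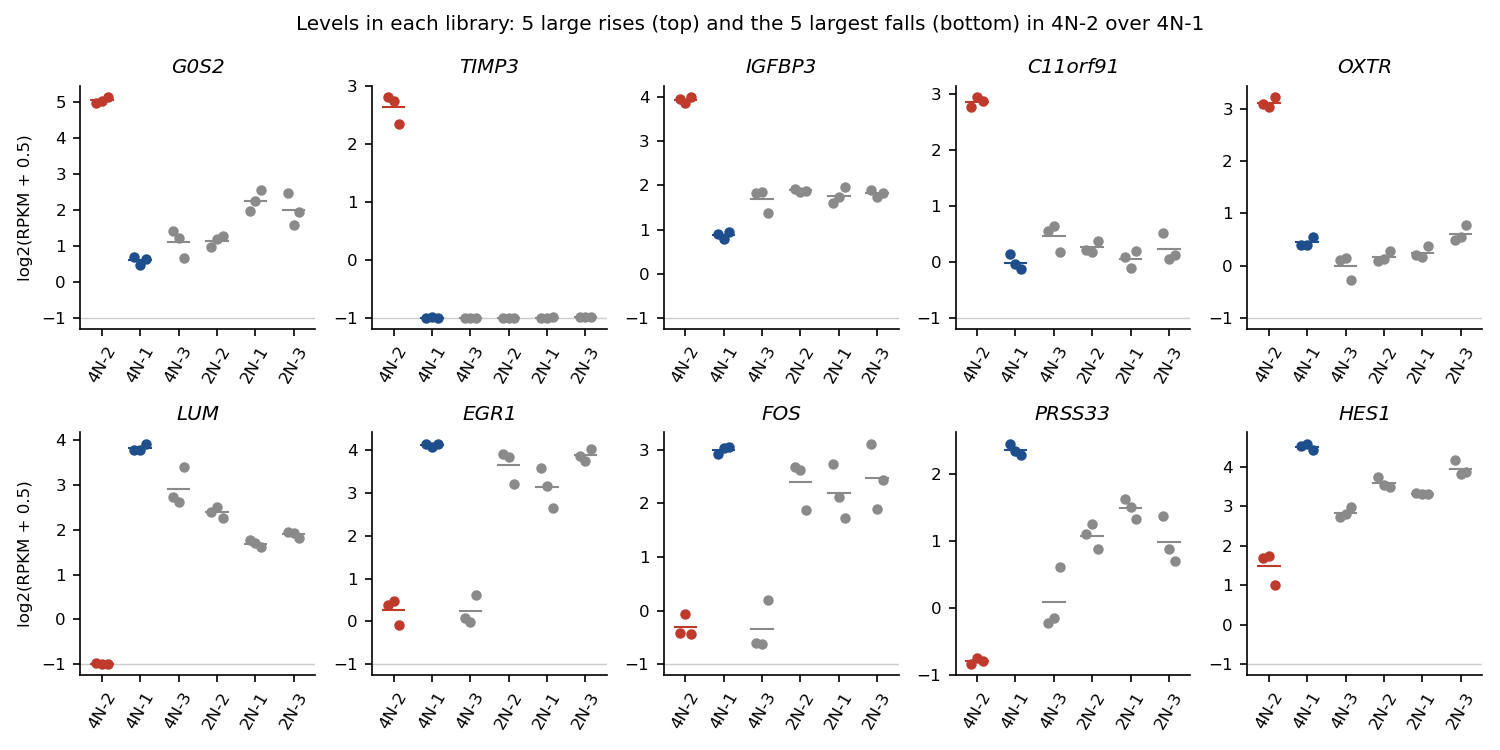
Level of each of 10 genes in all 18 libraries on log2(RPKM + 0.5), with 1 point per library, 1 column per clone (4N-2, 4N-1, then the other 4 clones) and a bar at each clone's mean; the grey line at -1 marks 0 RPKM. The 5 genes in the top row, chosen among the largest rises, are highest in 4N-2, and the 5 largest falls in the bottom row are highest in 4N-1, with EGR1 and FOS low in 4N-2 and 4N-3 alike.

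On the scale of recovered reads a set of genes was present in one tetraploid clone and absent or nearly so in the other. With at most 3 reads summed over the libraries of one clone and at least 300 in the other, 8 genes were on in 4N-2 and 5 in 4N-1. TBX3, a T-box transcription factor, had 1992 reads in 4N-2 and 2 in 4N-1, a ratio of 1083 (exact 95% interval 299 to 8946). APBB1IP, an adaptor between the GTPase Rap1 and integrin activation, had 1584 reads in 4N-2 and 2 in 4N-1. PROSER2 had 976 reads in 4N-2 and 2 in 4N-1. LINC01060, a noncoding RNA, had 1191 reads in 4N-2 and 3 in 4N-1. PAGE1, a cancer/testis antigen gene on the X chromosome, had 968 reads in 4N-2 and 0 in 4N-1, at least 351-fold higher in 4N-2 against a floor of 3 reads over the 3 libraries. An antisense transcript (ENSG00000259221), DMBT1 and PDGFRL were also on in 4N-2. In the opposite direction ZNF354C, a KRAB zinc finger gene, had 1 read in 4N-2 and 588 in 4N-1. EPHB6, an Eph receptor without kinase activity, had 3 reads in 4N-2 and 311 in 4N-1. The others were UGT1A4 and UGT1A3, whose shared exons leave their reads uncertain, and GYPE, a glycophorin gene with near-identical copies. The other clones did not follow a single order. Of the 5 genes on in 4N-1, 2 had at least 100 reads in each of the other 4 clones. Of the 8 on in 4N-2, PAGE1 had at most 3 reads in each of them. Most of the rest were also low there. The antisense transcript, PDGFRL and DMBT1 had at most 5, 7 and 9 reads in any of those clones, TBX3 at most 28 and PROSER2 at most 44. LINC01060 was on in 4N-3 as well, with 1053 reads, and had 312 in 2N-3. APBB1IP had 910 reads in 2N-2, 246 in 2N-3, 30 in 2N-1 and 1 in 4N-3. Its log2 difference of 2N-2 over 2N-1 on reads was 4.64 (limma-voom adjusted p = 1.75e-08), the same direction as between the tetraploid clones.

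The base composition at RefSeq starts of some on or off genes is shown. Every CG dinucleotide, the site at which promoter DNA is methylated, is in capitals. Reads were counted per gene, so the start used in these cells is not known. The windows run from 250 bases before to 50 bases after the RefSeq gene start on build GRCh38.p14, 5′ to 3′ on the plus strand, at chr10:26438091-26438390 for APBB1IP, chr10:11823106-11823405 for PROSER2 and chr5:179060123-179060422 for ZNF354C.
APBB1IP: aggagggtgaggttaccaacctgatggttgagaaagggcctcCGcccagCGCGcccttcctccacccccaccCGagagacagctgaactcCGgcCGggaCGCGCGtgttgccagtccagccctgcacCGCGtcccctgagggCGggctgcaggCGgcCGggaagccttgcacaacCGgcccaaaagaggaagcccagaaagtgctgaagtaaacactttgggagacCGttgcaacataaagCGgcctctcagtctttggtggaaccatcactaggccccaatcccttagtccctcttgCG
PROSER2: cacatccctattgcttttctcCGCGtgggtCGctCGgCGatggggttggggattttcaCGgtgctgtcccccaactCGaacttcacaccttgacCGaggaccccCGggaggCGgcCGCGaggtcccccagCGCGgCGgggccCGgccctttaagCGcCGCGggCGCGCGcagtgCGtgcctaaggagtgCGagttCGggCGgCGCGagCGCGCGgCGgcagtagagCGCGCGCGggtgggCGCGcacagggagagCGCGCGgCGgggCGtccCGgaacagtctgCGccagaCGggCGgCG
ZNF354C: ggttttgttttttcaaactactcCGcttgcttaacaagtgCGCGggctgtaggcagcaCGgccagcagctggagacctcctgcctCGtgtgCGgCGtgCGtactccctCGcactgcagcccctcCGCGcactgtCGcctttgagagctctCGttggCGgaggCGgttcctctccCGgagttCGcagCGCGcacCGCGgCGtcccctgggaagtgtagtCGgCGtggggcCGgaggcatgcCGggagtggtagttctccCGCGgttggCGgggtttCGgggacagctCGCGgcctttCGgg
These windows held 18, 48 and 33 CG. Among 27305 RefSeq promoters of the same length the median was 14, and 44.5%, 1.95% and 16.9% held at least as many. The window of LINC01060 held 5 CG, and those of UGT1A4 and UGT1A3 held 4 each, which 69.5%, 74.7% and 74.7% of promoters reached. Of the on or off genes with an entry in the promoter table, 3 of 5 on in 4N-2 and 1 of 5 on in 4N-1 held at least 10 CG, against 56.0% of all promoters. DNA methylation was not measured in these libraries.

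Among the genes with the largest changes on reads were others close to absent in either clone. GPR143, a melanosome receptor and marker of pigment cells at chrX:9725346-9786297 on the minus strand (GRCh38, GENCODE 29), averaged 38.2 ± 1.84 reads per M in 4N-2 and 0.0377 ± 0.0358 in 4N-1 (SD, n = 3 each). It was near 0 in 4N-3 too, at 0.0746 ± 0.0677, and present in all 3 diploid clones at 11.01 to 30.3 reads per M. NUP210, a nuclear pore glycoprotein, averaged 22.3 ± 0.660 reads per M in 4N-2 and 0.0442 ± 0.0217 in 4N-1 (SD, n = 3 each), with 0.196 in 4N-3 and 30.2 to 51.9 in the diploid clones. CADM1, an immunoglobulin-like adhesion molecule, averaged 95.3 ± 11.2 reads per M in 4N-2 and 0.143 ± 0.0513 in 4N-1 (SD, n = 3 each), and GYPC, glycophorin C, 28.9 ± 2.90 in 4N-2 and 0.0302 ± 0.0149 in 4N-1; both stayed at or below 0.362 in the other 4 clones. PTGFRN, a partner of tetraspanins at chr1:116910057-116990358 on the plus strand, ran the other way. It had 0.0507, 0.1004 and 0.0897 reads per M in 4N-2 and 151, 153 and 163 in 4N-1, with 101 to 155 in the other clones. POSTN, the matrix protein periostin, averaged 0.129 ± 0.0764 reads per M in 4N-2 and 54.7 ± 2.73 in 4N-1 (SD, n = 3 each). ABCC3, an efflux pump of organic anions, averaged 1.20 ± 0.206 in 4N-2 and 95.6 ± 7.49 in 4N-1 (SD, n = 3 each). All 7 genes passed on reads by limma-voom, with adjusted p from 9.32e-13 for PTGFRN to 2.20e-09 for GPR143.

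Genes of cell division were higher in 4N-2 throughout the list examined. All 35 tested mitosis genes rose, with a median log2 difference of 1.26, where 27.7% of all tested genes rose, 20% fell and the median was 0.05. These shares are the background for every list tested on RPKM below. TOP2A, the topoisomerase that untangles sister chromatids, had 20.2, 19.4 and 21.3 RPKM in 4N-2 and 4.35, 4.39 and 5.00 RPKM in 4N-1 (log2 difference 2.03, SE 0.19, limma adjusted p = 8.79e-07). CDK1, the kinase that starts mitosis, had 8.33, 9.33 and 11.1 RPKM in 4N-2 and 2.32, 2.28 and 2.53 RPKM in 4N-1 (log2 difference 1.804, SE 0.18). AURKB, the Aurora kinase of the chromosomal passenger complex and a target of the inhibitor used to derive the clones, averaged 11.7 ± 0.606 RPKM in 4N-2 and 2.75 ± 0.0330 RPKM in 4N-1 (SD, n = 3 each). The smallest rise was 0.69, for the spindle checkpoint gene BUB1B. The position of both clones among the 6 contributed: the 4N-1 mean was the lowest of all 6 clones for 35 of the 35 genes and the 4N-2 mean the highest for 25, or for 16 with library A of 2N-3 and library C of 4N-3 left out. Over all 9704 tested genes those counts were 2814 and 3110. Summed over the list, mitosis genes held 5139 to 5514 reads per M in 4N-2, 1622 to 1759 in 4N-1, 3381 to 5459 in 4N-3 and 3336 to 4824 in the diploid clones. In bulk RNA, fewer cells in mitosis and less mitotic RNA per cell cannot be told apart.

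DNA replication genes followed, with 22 of 24 tested rising and none falling (median log2 difference 0.79). Of all tested genes 27.7% rose and 20% fell. PCNA, the sliding clamp of DNA polymerases, had 21.9, 21.4 and 29.02 RPKM in 4N-2 and 6.75, 7.13 and 8.24 RPKM in 4N-1 (log2 difference 1.63, SE 0.20). TK1, thymidine kinase, averaged 8.30 ± 1.03 RPKM in 4N-2 and 1.94 ± 0.0197 RPKM in 4N-1 (SD, n = 3 each). MCM2, of the replicative helicase, rose by 0.57 (limma adjusted p = 0.0153), and without 4N-2 library C its difference was 0.43 and its adjusted p 0.0809. MCM6 was among the 2 that did not pass (0.30). Of 11 regulators of G1, 5 rose and 3 fell, the falls close to the share of all tested genes. CDK2, the kinase of S-phase entry, rose by 1.16. CDKN2B, the CDK4 and CDK6 inhibitor p15, had 6.53, 7.06 and 5.39 RPKM in 4N-2 and 26.2, 27.2 and 28.3 RPKM in 4N-1 (log2 difference -2.03, SE 0.17), and its neighbour CDKN2A, which encodes p16 and ARF, fell by 0.64. CDKN1B, the inhibitor p27, fell by 0.35. The D-type cyclin CCND1, at 57.2 ± 1.49 RPKM in 4N-2 and 55.4 ± 2.07 RPKM in 4N-1 (SD, n = 3 each), did not pass (log2 difference 0.05, SE 0.15). CCND2, a D-type cyclin close to 0 in the diploid clones (0.0128 to 0.492 reads per M), had 21.6, 24.6 and 18.8 reads per M in 4N-2 and 17.9, 19.4 and 19.2 in 4N-1 and did not pass either (log2 difference 0.19, SE 0.12, limma-voom adjusted p = 0.179).

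Targets of p53 were higher in 4N-2 as well. Of 24 tested 16 rose and none fell (median log2 difference 0.46), against 27.7% and 20% of all tested genes. BTG2, an antiproliferative p53 target, had 9.06, 8.35 and 9.70 RPKM in 4N-2 and 2.28, 2.51 and 2.62 RPKM in 4N-1 (log2 difference 1.68, SE 0.07, limma adjusted p = 1.74e-10). FDXR, ferredoxin reductase, rose by 1.32, and the death receptor gene FAS and the apoptosis gene BAX by 1.003 and 0.91. CDKN1A, which encodes p21, had 47.0, 48.2 and 50.9 RPKM in 4N-2 and 31.4, 30.3 and 30.7 RPKM in 4N-1 (log2 difference 0.65, SE 0.09). MDM2, the ligase that degrades p53, averaged 6.92 ± 0.431 RPKM in 4N-2 and 4.57 ± 0.112 RPKM in 4N-1 (SD, n = 3 each). For 23 of the 24 targets the 4N-2 mean was the highest of all 6 clones, against 32.0% of all tested genes. The summed list held 3042 to 3215 reads per M in 4N-2, 2078 to 2157 in 4N-1, 1779 to 1995 in 4N-3 and 1291 to 1474 in the diploid clones. Mitosis genes and p53 targets were thus both higher in 4N-2, and the order of the other clones differed between the lists: 4N-1 had the lowest mitosis sum and the second highest p53 target sum.

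Transcripts of most genes of cholesterol synthesis were lower in 4N-2. Of 24 tested genes of cholesterol synthesis and uptake, 20 fell and 1 rose (median log2 difference -0.70). HMGCS1, the HMG-CoA synthase of the mevalonate pathway, had 2.35, 2.46 and 2.43 RPKM in 4N-2 and 7.56, 7.59 and 8.18 RPKM in 4N-1 (log2 difference -1.51, SE 0.12, limma adjusted p = 2.01e-07). INSIG1, which retains the SREBP precursor in the endoplasmic reticulum, averaged 5.52 ± 0.240 RPKM in 4N-2 and 15.3 ± 0.911 RPKM in 4N-1 (SD, n = 3 each). The mevalonate decarboxylase gene MVD fell by 1.32, FDPS, farnesyl diphosphate synthase, by 1.07 and the transcription factor SREBF2 by 0.57. The member that rose was EBP, a sterol isomerase on the X chromosome, by 0.83. EBP also differed between the diploid clones, at 6.59 ± 0.196 RPKM in 2N-2 and 1.56 ± 0.0854 RPKM in 2N-1 (SD, n = 3 each). For 22 of the 24 genes the 4N-2 mean was the lowest of all 6 clones, against 28.4% of all tested genes. The summed list held 1574 to 1722 reads per M in 4N-2, 2907 to 3016 in 4N-1 and 2892 to 4259 in the other clones. Among 15 genes of fatty acid synthesis and lipid droplets, 9 fell and 4 rose (median -0.34). Besides SCD, the fatty acid synthase gene FASN and its regulator SREBF1 both fell by 1.12. The 4 that rose were G0S2, the droplet coat genes PLIN2 and PLIN3 (0.70 and 0.71), and the elongase gene ELOVL1 (0.60).

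Most of the collagen and matrix glycoprotein genes tested on RPKM fell in 4N-2. Of 8 collagen chains 6 fell and 1 rose (median log2 difference -0.75), and of 11 matrix glycoproteins and proteoglycans 7 fell and 1 rose (median -1.19). COL1A1, the main chain of fibrillar collagen, had 1.99, 2.28 and 1.14 RPKM in 4N-2 and 8.62, 8.68 and 7.69 RPKM in 4N-1 (log2 difference -1.97, SE 0.17). FN1, fibronectin, had 132, 123 and 113 RPKM in 4N-2 and 304, 293 and 304 RPKM in 4N-1 (log2 difference -1.29, SE 0.22), and the collagen chaperone SPARC fell by 1.19. COL11A1, a minor fibrillar chain tested on reads, averaged 1.17 ± 0.378 reads per M in 4N-2 and 52.5 ± 2.23 in 4N-1 (SD, n = 3 each). COL6A1 rose by 0.63, and FMOD, the collagen-binding proteoglycan fibromodulin, by 1.24. Over all genes tested on reads 23.6% rose and 24.6% fell. Among members of both lists tested only on reads, the balance was closer. Of 10 collagen chains 2 rose and 4 fell, and of 8 matrix glycoproteins 3 rose and 2 fell. The rises were those of COL13A1, a transmembrane collagen (log2 difference 0.48), COL5A1 (2.91, from a mean of 0.180 reads per M in 4N-2 and 0.0153 in 4N-1), PRELP, a leucine-rich proteoglycan (3.11), MFAP5 of the microfibrils (1.66) and TNC, tenascin C (0.44). Matrix proteases and their inhibitors went both ways: 6 of 11 rose, led by TIMP3, the aggrecanase ADAMTS1 (1.88) and the plasminogen activator PLAT (1.27), and 3 fell, the collagenase MMP14 (-1.08), the gelatinase MMP2 (-1.001) and urokinase PLAU (-0.61). Of 11 integrin subunits 6 fell and 1 rose, against 20% and 27.7% of all genes tested on RPKM. The collagen-binding ITGA11 had 0.305, 0.295 and 0.228 RPKM in 4N-2 and 3.28, 3.23 and 3.21 RPKM in 4N-1 (log2 difference -2.27, SE 0.14), and the laminin-binding ITGA6 3.40, 3.07 and 3.47 RPKM in 4N-2 and 0.704, 0.742 and 0.835 RPKM in 4N-1 (log2 difference 1.60, SE 0.10). The common beta subunit ITGB1 did not pass (-0.02).

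Smooth muscle contractile genes fell in 9 of 10 cases, with a median log2 difference of -1.06. Beside MYL9 these included ACTA2, smooth muscle actin, at 0.857 ± 0.105 RPKM in 4N-2 and 3.08 ± 0.0318 RPKM in 4N-1 (SD, n = 3 each), and TAGLN, the actin-binding transgelin, at 31.4 ± 2.28 RPKM in 4N-2 and 72.9 ± 2.39 RPKM in 4N-1 (SD, n = 3 each). SMTN, smoothelin, rose by 0.86. The 4N-1 mean was the highest of all 6 clones for 9 of the 10, against 18.5% of all tested genes. Among 15 targets of the coactivators YAP and TAZ, 9 fell and 4 rose (median -0.40). Of all tested genes 20% fell and 27.7% rose, so the rises were near that share. CCN1, a matricellular protein, had 53.9, 55.8 and 69.6 RPKM in 4N-2 and 180.4, 186 and 192 RPKM in 4N-1 (log2 difference -1.64, SE 0.11), and its relative CCN2 fell by 1.06. AXL, a receptor tyrosine kinase of the same list, rose by 1.47.

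Most cytokine and chemokine genes tested on RPKM fell. Of 10 list members tested there, with CCL2 the only chemokine, 8 fell and 2 rose (median -1.12). Of 6 further members tested only on reads, none fell and 2 rose, against 24.6% and 23.6% of all genes tested on reads. LIF, a cytokine of the interleukin 6 family, had 18.1, 18.0 and 16.7 RPKM in 4N-2 and 77.8, 79.2 and 71.8 RPKM in 4N-1 (log2 difference -2.08, SE 0.08). IL6 itself averaged 0.297 ± 0.0625 RPKM in 4N-2 and 3.27 ± 0.211 RPKM in 4N-1 (SD, n = 3 each). CSF2, the growth factor GM-CSF, rose by 1.58. Immediate early genes divided by member: 7 of 14 fell, among them EGR1, FOS and FOSB, JUNB fell by 1.28 and the serum response factor gene SRF by 1.18, while 3 rose, with FOSL1 at 1.53; MYC (0.23) and JUN (0.26) did not pass. The summed immediate early list held 1038 to 1135 reads per M in 4N-2 and 968 to 986 in 4N-1, and FOSL1, a Fos relative, took 416 of these reads per M in 4N-2 and 141 in 4N-1 on average. In the list of 22 interferon-stimulated genes 8 fell and 3 rose, while the median lay above 0 (0.07); GBP1, a guanylate-binding protein, fell by 1.91 and IFIT1 rose by 0.95. HES1 fell alone among the 3 Notch pathway genes tested on RPKM, while on reads 6 of 11 rose and 1, HES1, fell, against 23.6% and 24.6% of all genes tested there. Of 15 TGF-beta ligands, receptors and induced genes 7 fell and 3 rose, against 20% and 27.7% of all genes tested on RPKM. The ligand gene TGFB2 fell by 1.504 and SMAD3, a transducer of the pathway, rose by 1.12.

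Lists of housekeeping and stress functions are set against the 27.7% of all tested genes that rose and the 20% that fell. Of 17 genes of the unfolded protein and integrated stress responses 11 fell and 3 rose (median -0.34), with the chaperone gene HSPA5 at -0.65 and ASNS, asparagine synthetase, at 0.69. Of 30 lysosome genes 15 fell and 5 rose (median -0.21), from the protease gene CTSD at -1.52 to the sulfatase gene SGSH at 1.36. No cytosolic ribosomal protein gene of 30 rose and 4 fell (median -0.26), with RPL5 at -0.59 and RPL22 at -0.45. The summed list held 14228 to 16072 reads per M in 4N-2 and 17519 to 18577 in 4N-1. It held 16380 to 31419 in 2N-3, and the test takes its spread from all 18 libraries. Libraries of 4N-2 and 4N-1 did not overlap for 22 of the 30 genes, against 69.2% of all tested genes. Of 16 heat shock protein genes 5 rose and 4 fell, shares close to those of all tested genes, with HSP90AA1 at 0.90 and HSPA8 at -0.97.

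**Figure D2:**
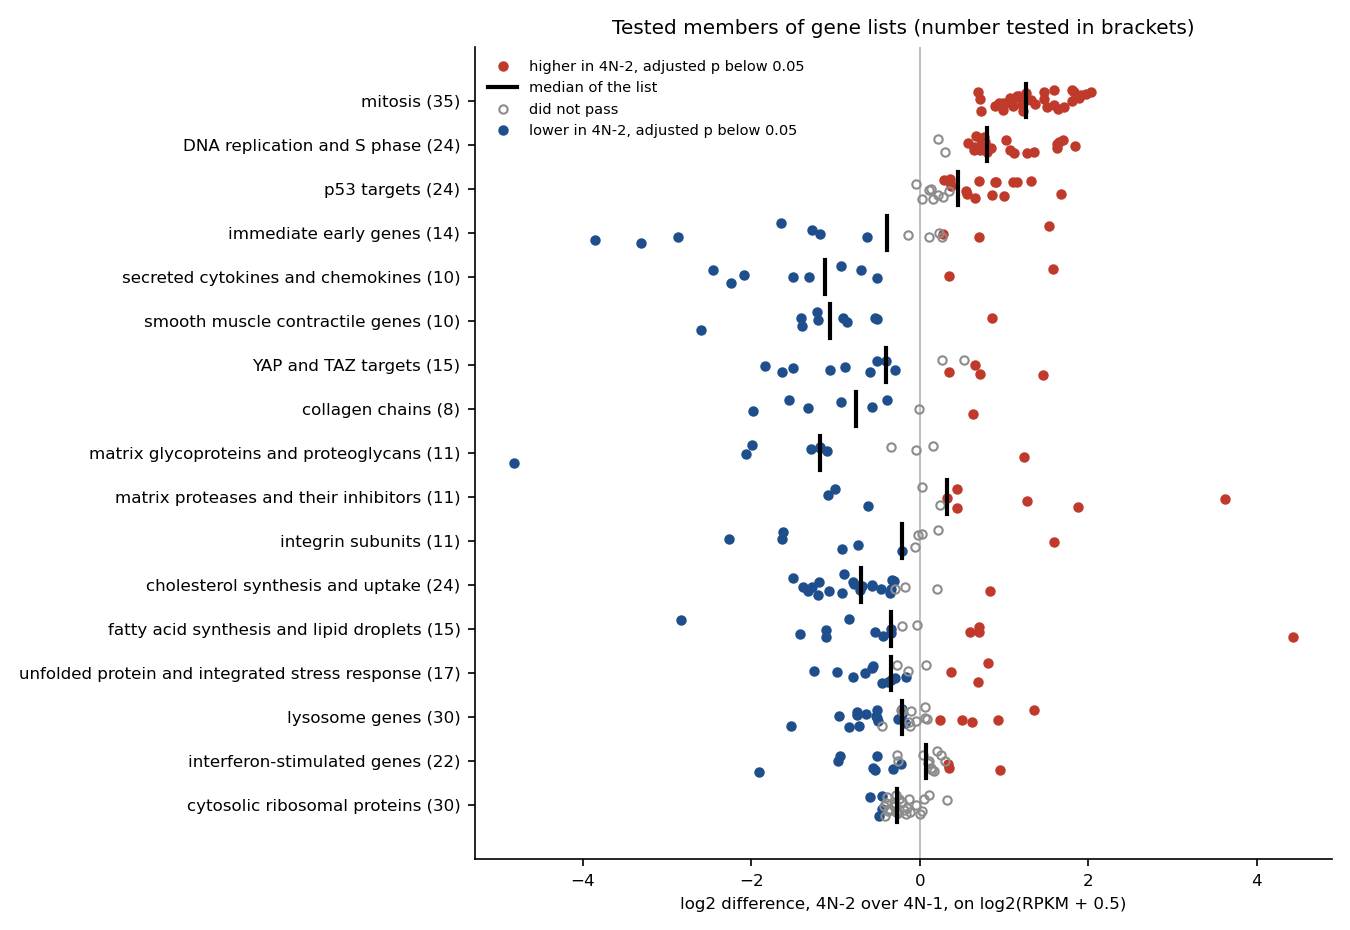
Log2 difference of 4N-2 over 4N-1 on log2(RPKM + 0.5) for each tested member of 17 gene lists, with 1 point per gene, the vertical bar at the list's median, red for genes that rose, blue for genes that fell and open grey for genes that did not pass at an adjusted p of 0.05. All 35 mitosis genes lie right of 0, while 20 of 24 cholesterol genes and 9 of 10 contractile genes are blue and left of it.

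The labelled tissue was checked against 20 markers of retinal pigment epithelium. On reads 16 could be tested, of which 3 rose and 9 fell, against 23.6% and 24.6% of all genes tested there. RDH5, a retinol dehydrogenase of the visual cycle, had 27.2, 28.9 and 29.9 RPKM in 4N-2 and 7.58, 7.62 and 6.54 RPKM in 4N-1 (log2 difference 1.91, SE 0.11). PAX6 and OTX2, eye-field transcription factors, fell by 0.87 and 0.34 on the RPKM scale. MERTK, the receptor with which the epithelium engulfs photoreceptor debris, averaged 1.61 ± 0.235 reads per M in 4N-2 and 7.59 ± 0.660 in 4N-1 (SD, n = 3 each). RPE65, the retinoid isomerase that defines mature retinal pigment epithelium, had 0 reads in 4N-2 and 65 in 4N-1; TYR, the pigment enzyme, had 2 reads in 4N-2 and 3 in 4N-1, and TTR, transthyretin, 1 read in 4N-2 and 0 in 4N-1. Of 20 markers of other cell types, 19 were matched and 6 reached the read filter, of which AFP and CD68 rose. Their sum was 136 to 152 reads per M in 4N-2, 29.6 to 30.6 in 4N-1 and 48.5 to 50.9 in 4N-3. Nearly all of it was CD68, a lysosomal glycoprotein, with 55.8, 49.5 and 50.1 RPKM in 4N-2 and 10.6, 10.1 and 10.3 RPKM in 4N-1, and with 17.3 to 18.8 RPKM in the other clones. Of the others, 5 had no reads in either clone. The blood cell markers CD3E and HBB were at 0 in all 18 libraries, and the leukocyte marker PTPRC had 12 reads in 4N-2 and 28 in 4N-1.

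The corresponding diploid clones show how far isolates 2 and 1 differed at 2N. Between 2N-2 and 2N-1, 17 of 9704 genes were called on RPKM (0.175%) and 320 of 23397 on reads (1.37%). Of these, 2N-2 was labelled with Hoechst 33342, as 4N-2 was. The difference between isolates was itself different between ploidies, 4N-2 minus 4N-1 against 2N-2 minus 2N-1, for 869 genes on RPKM (8.96%; 5.05% in the positive and 3.91% in the negative direction) and for 4355 on reads (18.6%; 8.75% and 9.86%), by limma at the same thresholds. This difference contains that of 4N-2 over 4N-1, so its calls are not separate evidence of the changes described above. G0S2, at 1.71 ± 0.249 RPKM in 2N-2 and 4.31 ± 0.976 RPKM in 2N-1 (SD, n = 3 each), was lower in 2N-2 by 1.11 on the log2 scale (limma adjusted p = 0.0313), the opposite of its difference in the tetraploid clones. For LUM, at 4.76 ± 0.423 RPKM in 2N-2 and 2.73 ± 0.167 RPKM in 2N-1 (SD, n = 3 each), the diploid difference was 0.70 (limma adjusted p = 0.0393). By list, the difference between ploidies passed in the positive direction for 35 of 35 mitosis genes, 22 of 24 replication genes and 15 of 24 p53 targets, where 20.5% of all tested genes did. It passed in the negative direction for 19 of 24 cholesterol genes and 8 of 10 contractile genes, against 15.1% of all tested genes. Between 2N-2 and 2N-1, none of the mitosis, replication, p53 target or contractile genes passed by limma, where 73 of all 9704 tested genes did (0.752%), so a count of 0 is near the background. Matrix glycoproteins and proteoglycans did differ there, with 4 of 11 passing. In every other list at most 1 tested member passed, such as 1 of 8 collagen chains and 1 of 10 cytokines and chemokines.

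**Figure D3:**
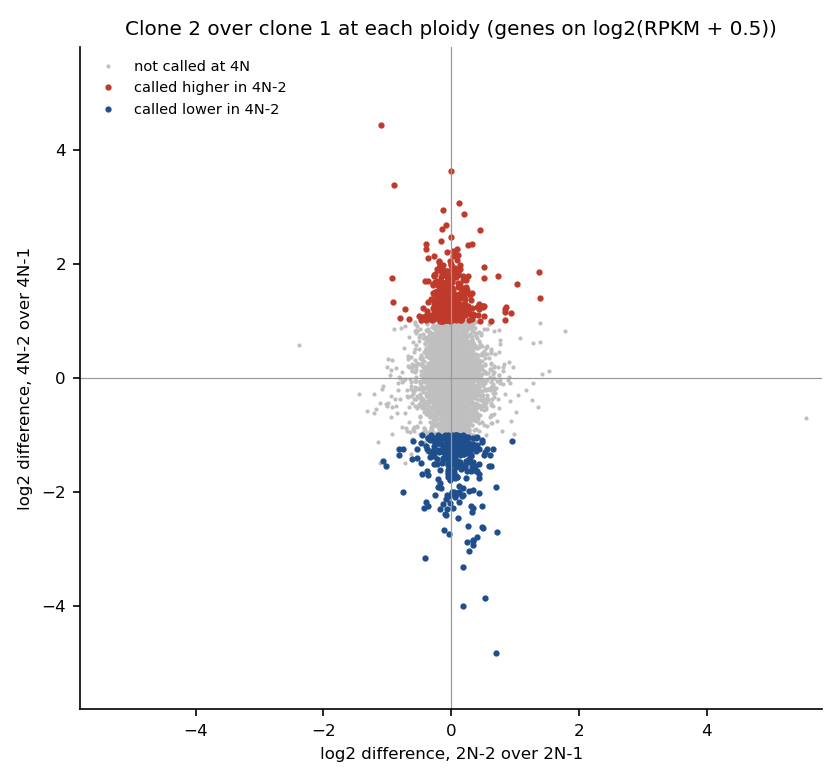
Each point is 1 of 9704 genes, with the log2 difference of 2N-2 over 2N-1 on the horizontal axis and of 4N-2 over 4N-1 on the vertical axis, both on log2(RPKM + 0.5); red and blue mark the 420 and 341 genes called higher and lower in 4N-2. The cloud is tall and narrow, as 761 genes were called between the tetraploid clones and 17 between the diploid clones.

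Genes of chromosome 1 were lower in 4N-2 as a body. Over 1170 genes with a mean of at least 300 reads the median log2 difference in reads per M was -0.28, and in 4N-2 libraries A, B and C against the mean of 4N-1 it was -0.28, -0.30 and -0.26. On this chromosome 50% of genes fell and 13.9% rose, while of all 12120 genes 27.2% fell and 27.7% rose and the median was 0.003. Chromosome 1 was divided into 29 consecutive windows of 40 or more neighbouring genes: all 29 medians were below 0, from -0.554 to -0.0994, and 22 were below -0.2. Of 256 such windows on the other chromosomes 11 were below -0.2. Set against the mean of the diploid clones, the chromosome 1 median was -0.31 in 4N-2, -0.03 in 4N-1 and 0.01 in 4N-3. The chromosomes next in size of median were 20 (0.15) and 13 (-0.13). DNA copy number was not measured. Single genes of chromosome 1 went both ways. Of the falls described above, PTGFRN, COL11A1, GBP1, CCN1, TGFB2, RNU6ATAC18P, RPL5 and RPL22 are among those that lie on it, and all but the ribosomal protein genes fell by more than 1 on the log2 scale. G0S2, the largest rise on RPKM, lies on chromosome 1 too, as do the rises of PRELP and FMOD. CDC20, a chromosome 1 gene and activator of the anaphase-promoting complex, rose as well, with 20.3, 21.6 and 22.9 RPKM in 4N-2 and 9.76, 9.57 and 9.91 RPKM in 4N-1 (log2 difference 1.11, SE 0.18).

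**Figure D4:**
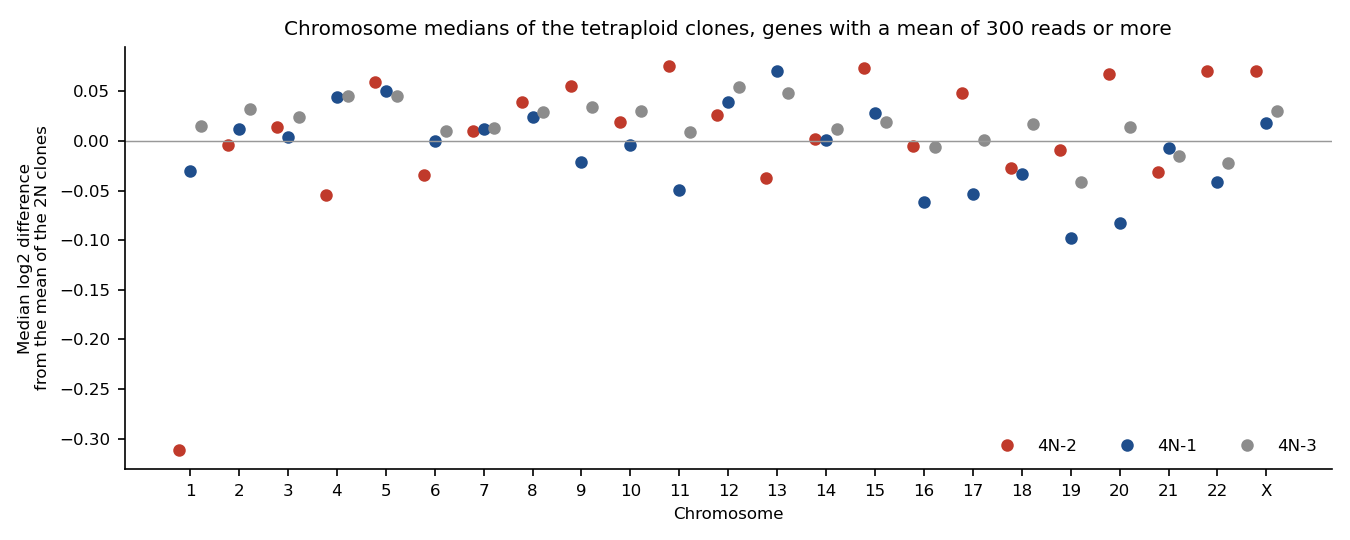
Median log2 difference of each tetraploid clone from the mean of the diploid clones, by chromosome, over genes averaging at least 300 reads; red is 4N-2, blue 4N-1 and grey 4N-3. Chromosome 1 of 4N-2 lies at -0.31, below every other point.

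Transcripts of the mitochondrial genome changed relative to one another. The set was examined because MT-ND2, MT-TL1 and MT-TT were among the largest changes, so its counts are a description. Of 36 tested mitochondrial genes 8 rose and 23 fell on reads, against 23.6% and 24.6% of all genes tested there. Both ribosomal RNAs fell, 16 of 21 tRNAs fell and 2 rose, and of 13 protein-coding genes 6 rose and 5 fell. Some of the tRNA genes were near the floor, such as MT-TM at 0.0253 to 0.125 reads per M in 4N-2 and 0.268 to 0.399 in 4N-1. The libraries were made from polyadenylated RNA, so these reads do not measure total tRNA or ribosomal RNA. MT-ND1 and MT-ND2 encode subunits of respiratory complex I. MT-ND1 had 7631, 4677 and 4829 reads per M in 4N-2 and 1703, 1842 and 1426 in 4N-1 (log2 difference 1.76, SE 0.19, limma-voom adjusted p = 5.47e-07). MT-ND2 averaged 8157 ± 1519 in 4N-2 and 1753 ± 129 in 4N-1 (SD, n = 3 each), and it has nuclear pseudogene copies to which its reads can also align. Such copies were not examined for this or any other mitochondrial gene, so the same caution may hold for the other values and the ratios. MT-RNR2, the large ribosomal RNA, had 967, 847 and 944 reads per M in 4N-2 and 2911, 2991 and 2888 in 4N-1 (log2 difference -1.67, SE 0.11). The other 4 clones averaged 1478 to 1799, so 4N-1 stood above them and 4N-2 below. MT-RNR1, the small ribosomal RNA, averaged 220 in 4N-2, 508 in 4N-1 and 242 to 364 in the other 4 clones. For MT-RNR1 only 1 of the 3 libraries of 4N-2 lay outside the range of the other 15. MT-CO1, a subunit of cytochrome oxidase, averaged 5557 ± 643 in 4N-2 and 12391 ± 371 in 4N-1 (SD, n = 3 each). MT-TL1, a leucine tRNA that lies between MT-RNR2 and MT-ND1, had 5.83, 3.91 and 4.67 reads per M in 4N-2 and 33.2, 36.0 and 26.3 in 4N-1 (log2 difference -2.73, SE 0.19). These genes are copied as long joint transcripts and cut apart afterwards. A ratio of read counts within 1 library does not depend on its depth. The ratio of MT-ND1 to MT-RNR2 reads was 6.18 ± 1.5004 in 4N-2 and 0.565 ± 0.0634 in 4N-1 (SD, n = 3 each), and 0.494 to 1.42 over all 15 libraries outside 4N-2. The ratio of MT-ND2 to MT-CO1 was 1.46 ± 0.0989 in 4N-2 and 0.141 ± 0.00617 in 4N-1 (SD, n = 3 each). Mitochondrial genes took 6.17%, 4.62% and 4.55% of the reads of 4N-2 libraries A, B and C and 4.34% to 4.88% of those of 4N-1; the library with the highest share, 4N-2 A, also had the highest MT-ND1 level.

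**Figure D5:**
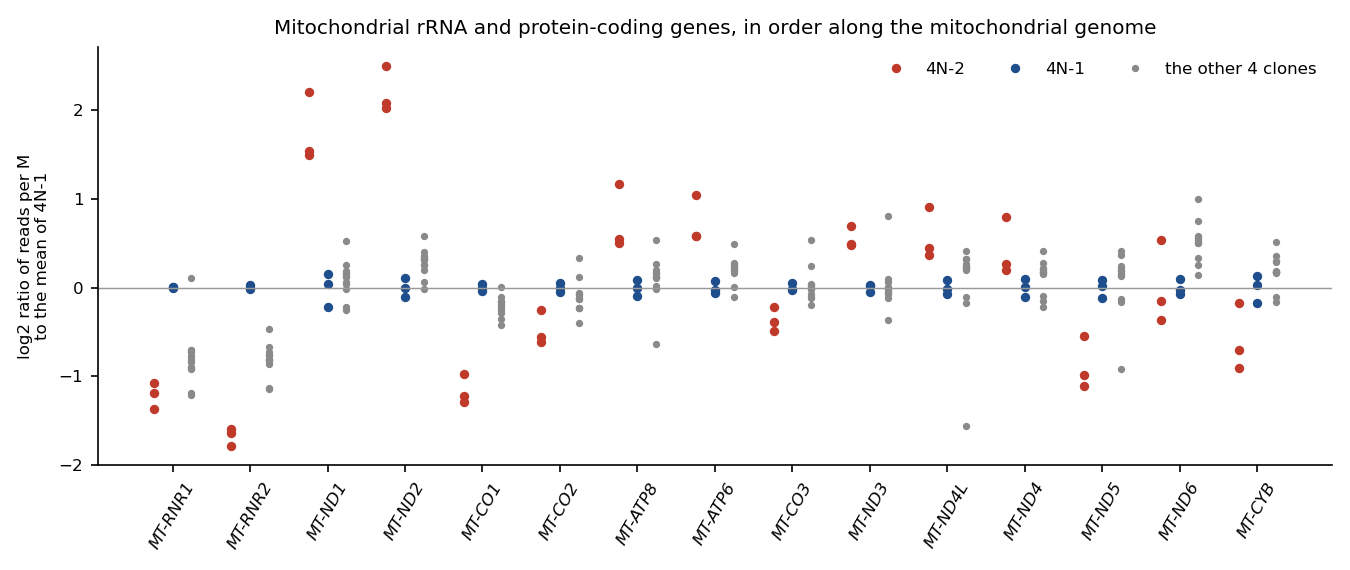
Log2 ratio of reads per M to the mean of 4N-1 for the 2 ribosomal RNA and 13 protein-coding genes of the mitochondrial genome, in genome order, with 1 point per library: red 4N-2, blue 4N-1 and grey the other 4 clones. In 4N-2, MT-ND1 and MT-ND2 stand above and MT-RNR2 and MT-CO1 below the points of the other 15 libraries.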

How the data were processed

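RNA-seq of 18 RPE1 libraries was analysed, 3 for each of 6 clones. The authors deposited RPKM values for 57773 genes; per the submitters' processing notes CASAVA 1.8.2, TopHat2, edgeR and build hg19 were used. Values of a gene were whole multiples of 1 read (100% of values above 0 within 0.01 reads), and the gene lengths implied matched the genomic span of GENCODE 29 within 0.5% for 86.2% of 17191 genes checked; RPKM is therefore per kb of span, and levels are not compared between genes. Positions are GRCh38, not the authors' build.

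The RPKM test was limma 3.58.1 (R 4.3.3) with a mean-variance trend on log2(RPKM + 0.5), over all 18 libraries, for genes at 1 RPKM or more in at least 3 libraries. Recovered reads were tested with limma-voom, for genes with 10 or more reads in at least 3 libraries. The same fits gave 2N-2 against 2N-1 and the difference between ploidies. Both fits were tested on simulated data. Per direction the text names the 15 largest called changes whose libraries do not overlap and whose higher mean is at least 2 RPKM (100 reads on the reads scale), on or off genes by their read limits, and list members by size or role. The comparison, the rules and the gene lists were chosen with earlier results of these data known. Some genes that meet these rules are not reported here. Promoter windows are from RefSeq. Alternatives changed the pseudocount, the low-value filter, the scaling, the libraries in the fit, the replicate block and the scale tested. Intervals cover counting error only.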

Additional observations from a re-analysis of the deposited data

Results flagged for a closer look

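The difference between isolates 2 and 1 differed between ploidies, by limma's test of (4N-2 minus 4N-1) minus (2N-2 minus 2N-1), for 869 genes on RPKM and 4355 on reads. Of the genes named above, such differences on the log2 scale included those of G0S2 (5.54), TIMP3 (3.63), IGFBP3 (2.95) and OXTR (2.76) in the positive direction. In the negative direction they included those of LUM (-5.52), EGR1 (-4.38), FOS (-3.49), FOXS1 (-3.42) and HES1 (-3.31). FOXS1, a forkhead transcription factor, averaged 1.08 ± 0.339 RPKM in 4N-2 and 9.63 ± 0.382 RPKM in 4N-1, and 9.45 ± 1.27 RPKM in 2N-2 and 5.55 ± 0.673 RPKM in 2N-1 (SD, n = 3 each).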

How the results depend on the processing

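With a pseudocount of 1 the RPKM test called 492 genes (279 higher, 213 lower) in place of 761, and the difference between ploidies 579 (248 lower) in place of 869. Recovered reads gave 4311 (2067 higher, 2244 lower) and, for the difference between ploidies, 4355 (2048 higher, 2307 lower), with 3177 of the 4311 not tested on RPKM. On reads, limma with a trend on log2(reads per M + 0.5) called 2473 (1307 higher, 1166 lower), and 2896 (1392 lower) for the difference between ploidies. Leaving out each replicate in turn gave 728 to 776 genes on RPKM (401 to 431 higher, 323 to 348 lower) and 4020 to 4299 on reads (2002 to 2064 higher, 1972 to 2267 lower). Median-ratio scaling turned the balance of calls on RPKM to 366 higher and 392 lower, and that of genes that rose or fell to 2441 and 2342, in place of 2686 and 1945. With it CCND1 changed sign to -0.0226 without passing in either case (limma adjusted p = 0.911). The number of genes that passed on RPKM also depended on the libraries in the fit. Without library A of 2N-3 and library C of 4N-3, 3763 rose and 2831 fell. With only the 6 libraries of the compared clones, 3498 rose and 2546 fell. The shares of 27.7% and 20% used for the lists rest on all 18 libraries. Genes with a mean of at least 50 reads gave medians of -0.26, 0.13 and -0.10 for chromosomes 1, 20 and 13. Replicate letters did not pair the clones (correlations of deviations -0.0676, 0.0647 and 0.0791; not every library correlated best with its own letter), and the replicate block called 757 genes on RPKM (418 higher, 339 lower) and 4278 on reads (2049 higher, 2229 lower). The 57 genes followed on RPKM and 44 on reads were checked for sign and for an adjusted p below 0.05. The 2-fold limit of a call was not followed for them. Under any alternative 2 and 1 changed: MCM2, CCND1 and CCND2. CCND2 passed without 2N-3 A and 4N-3 C (0.19, limma-voom adjusted p = 0.0443).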

Other observations

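Gene families that the lists cover but that lie mostly below the RPKM filter are given against the 23.6% of all genes tested on reads that rose and the 24.6% that fell. All 9 UGT1A glucuronosyltransferases fell on reads, with 0.228 to 0.427 reads per M summed in 4N-2 and 21.4 to 26.4 in 4N-1; 4N-3 held 17.0 to 41.6, and since these genes share exons their reads are not independent. Of 9 ABC drug efflux pumps 4 fell and none rose, among them ABCB1, the P-glycoprotein, at 0.356 ± 0.0200 reads per M in 4N-2 and 2.34 ± 0.272 in 4N-1, and ABCG2 at 2.28 ± 0.220 in 4N-2 and 4.15 ± 0.482 in 4N-1 (SD, n = 3 each). ABCB1 was also higher in 4N-3, at 2.94 ± 0.345, than in the diploid clones, which had 0.0390 to 0.107. Of 16 HOX genes 2 rose and 9 fell; HOXD13, the most 5′ gene of its cluster, had 1.10 ± 0.0915 reads per M in 4N-2 (SD, n = 3) and 0 in each 4N-1 library.

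Of 50 clustered protocadherin genes on reads 2 rose and 19 fell. Of the 28 tested on RPKM, PCDHB15 rose and PCDHB14 fell, and of the 22 tested only on reads 18 fell and none rose. Among these were genes of the alpha cluster, such as PCDHA4 at a log2 difference of -0.40, which share exons, so their reads are not independent. Among 5 epithelial-mesenchymal genes SNAI2 rose by 0.51 and SNAI1, CDH2 and FN1 fell, and among 8 keratin and junction genes DSP, DSG2 and KRT81 rose and KRT7 fell. GDF15, a p53-induced cytokine tested on reads, had 0.228, 0.226 and 0.314 reads per M in 4N-2 and 0.261, 0.357 and 0.312 in 4N-1 and did not pass.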
